A study of Mus musculus with 12 samples.

Results

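The circular RNAs described here are the long intronic ones of cultured mouse spermatogonial stem cells (SSCs), the cells of the testis that renew themselves and give rise to sperm. They were chosen as every circular RNA that at least 1 of the 4 SSC lists typed as intronic and whose back-splice junction spanned more than 2000 bases of the genome. This gave 3492 of the 29643 circular RNAs in the 4 lists together. The other listed circular RNAs were 1588 intronic ones of at most 2000 bases, 18288 exonic ones above and 3358 exonic ones up to 2000 bases, and 2503 intergenic ones above and 414 intergenic ones up to 2000 bases. No circular RNA had different types in different lists.

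The SSCs were cultured cells of male pups, 5 days postpartum, of an F1 cross between DBA/2 and C57BL6. The labels name 2 libraries as treated with RNase R, which degrades linear RNA from its free 3′ end and spares most circles, and 2 as untreated. Levels of host genes came from freshly isolated male germ cells of the same cross, with 2 libraries per stage. At 7 days these were priSG-A (primitive type A spermatogonia), at 17 days preleptotene (plpSC) and pachytene (pacSC) spermatocytes, and at 60 days round spermatids (rST). The SSC lists hold junctions and no gene levels, so the identity of the cultured cells could not be checked against marker genes. Nothing in the labels says whether replicates were separate cultures, so each p-value covers no more than the spread among these samples, which may be technical.

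A back-splice junction joins the end of a transcript segment to its own start, and reads that cross it reveal a circle. Most known circular RNAs join exons, with intervening introns removed. Intron-derived circles are known in 2 forms, lariats that escaped debranching, held by a bond at the branch point, and exon-intron circles that keep an intron between circularised exons and stay in the nucleus. A junction tells where a circle begins and ends and not what lies between. The span of a member is therefore a distance on the genome and not the length of an RNA molecule. The intronic type was the authors' own and their annotation is not given in the sources used here.

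Of 606 miRNA genes with a locus, 16 lay inside the span of at least 1 long intronic circular RNA, and 24 circular RNAs spanned one. In circular RNAs found in at least 2 libraries there were 4 such miRNA genes. Their mature sequences are shown because a circle that kept this stretch would carry the miRNA hairpin if it came from the same strand. Junction reads cannot tell whether the stretch was kept, and strands were not compared. RefSeq (GRCm38.p6 table) held mature sequences for 2 of the 4, written 5′ to 3′ with the seed (bases 2 to 8) in capitals.
mmu-miR-1955-5p: aGUCCCAGgaugcacugcagcuuuu
mmu-miR-491-5p: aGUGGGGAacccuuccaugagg
mmu-miR-491-3p: cUUAUGCAagauucccuucuac
No seed was shared among these 3. Mir1955 lay inside a circular RNA of Phf21a (chr2:92031023-92070881) with 13 and 27 junction reads in the treated replicates 1 and 2 and none in the untreated libraries. Mir491 lay inside one at BC057079 (chr4:87761835-87774956) with 10 and 3 treated reads and no untreated ones. Mir599 and Mir875 shared one at Vps13b (chr15:35545795-35604707) with 11 and 9 treated reads and no untreated ones. All positions are on build mm9, counted from 1.

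Long intronic circular RNAs were a minor class of the SSC circular RNAs. They were 1215 of 12266 listed circular RNAs in treated replicate 1 (9.905%), 2941 of 25415 in treated replicate 2 (11.57%), 197 of 2601 in untreated replicate 1 (7.574%) and 268 of 3578 in untreated replicate 2 (7.49%). Their junction reads were 15513 of 263855 (5.879%, exact binomial 95% interval 5.79 to 5.97) in treated replicate 1 and 36628 of 560991 (6.529%, 6.465 to 6.594) in treated replicate 2. In the untreated replicates they were 1280 of 21754 (5.884%, 5.575 to 6.205) and 1803 of 30400 (5.931%, 5.668 to 6.202). Such intervals cover counting error only.

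Their share of the junction reads was 6.204% ± 0.459 (SD, n = 2) after RNase R and 5.907% ± 0.0332 without it. The treated replicates lay on both sides of the untreated ones (difference 0.297 percentage points, two-sided exact permutation p = 1.0), and without treated replicate 2 the difference was -0.0281. Their share of the listed circular RNAs was 10.74% ± 1.18 against 7.532% ± 0.0592. Here the groups did not overlap, with an exact permutation p = 0.333, the smallest that 2 against 2 libraries can give. The treated lists also held far more junction reads, as given above, and the part of depth in this second difference was not tested. For comparison, long exonic circular RNAs held 69.33% ± 2.2 of treated and 63.22% ± 3.63 of untreated reads, short intronic ones 1.953% ± 0.284 and 1.356% ± 0.078, and long intergenic ones 7.2% ± 1.17 and 17.06% ± 4.29 (exact permutation p = 0.333 for each of the 3).

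**Figure D1:**
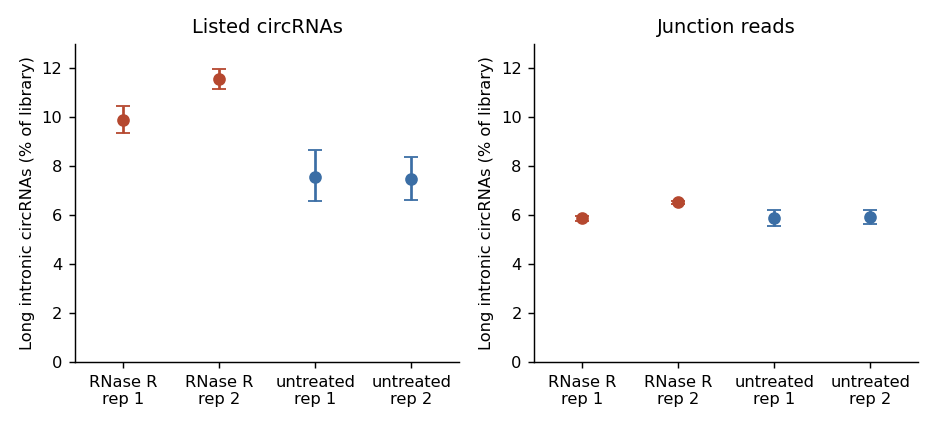
Long intronic circular RNAs as a share of the listed circular RNAs (left) and of the junction reads (right) of each SSC library, in percent; points are libraries and bars exact binomial 95% intervals. The treated libraries lie above the untreated ones on the left (9.905% and 11.57% against 7.574% and 7.49%) and close to them on the right (5.879% and 6.529% against 5.884% and 5.931%).

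Most members were rare and a few were abundant. The median member had 6 and 4 reads in the treated replicates that listed it and 3 in each untreated replicate. At least 100 reads were reached by 13 and 37 members in the treated libraries and by 1 and 3 in the untreated ones. The 5 most abundant members of each library held 16.41% and 16.75% of the treated and 29.77% and 28.79% of the untreated member reads.

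The most abundant member came from Ep400, which encodes the ATPase of a chromatin remodelling complex. It spanned 2963 bases (chr5:111182823-111185785) and had 895 and 1853 treated and 145 and 160 untreated reads. As CPM, which is reads scaled to a common library total with TMM factors, these were 3918 and 4896 treated and 4909 and 4174 untreated. The groups overlapped, and the log2 fold change of treated over untreated was -0.04 ± 0.33 (SE, edgeR quasi-likelihood adjusted p = 0.921). The change was -0.477 with RLE factors and -0.475 with DESeq2, and without scaling factors it was -0.832 and called lower (edgeR adjusted p = 0.041). Its sign turned without treated replicate 1 (0.11) and without untreated replicate 1 (0.165).

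Bnc2, which encodes the zinc finger protein basonuclin 2, gave the second most abundant member by treated reads (chr4:84192109-84201808). It had 683 and 1435 treated reads, but 0 in untreated replicate 1 and 76 in untreated replicate 2, or 2990, 3792, 0 and 1983 CPM. The untreated replicates thus differed more from each other than untreated replicate 2 did from the treated ones (log2 fold change 1.75 ± 0.87, edgeR adjusted p = 0.232).

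Zfp532, a zinc finger gene, had one at chr18:65798404-65816286 with 348 and 1089 treated and 33 and 102 untreated reads. In each treatment replicate 2 was the higher one, at 1523 and 2878 treated and 1117 and 2661 untreated CPM, and the groups overlapped. Its log2 fold change of 0.22 ± 0.48 (edgeR adjusted p = 0.723) turned to -0.255 with RLE factors and to -0.258 with DESeq2. Zeb1, a zinc finger repressor of epithelial genes, had one of 72040 bases (chr18:5633202-5705241) with 387, 800, 40 and 34 reads in treated replicates 1 and 2 and untreated replicates 1 and 2. Its CPM of 1694 and 2114 against 1354 and 886.9 did not overlap between treatments (log2 fold change 0.77 ± 0.47, edgeR adjusted p = 0.236), and the change was -0.0263 without scaling factors.

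The gene of the focal adhesion kinase, Ptk2, and Tlk1, which encodes a kinase of chromatin assembly, had members with larger differences. The Ptk2 circular RNA (chr15:73222189-73225174, 2986 bases) had 222 and 288 treated and 5 and 12 untreated reads, or 971.7 and 761.0 against 169.3 and 313.0 CPM. The Tlk1 one (chr2:70606919-70625052) had 233 and 358 treated and 4 and 19 untreated reads, or 1020 and 946 against 135.4 and 495.6 CPM. Both were higher in each treated library than in either untreated one, and neither passed the test (log2 fold change 1.82 ± 0.65 with edgeR adjusted p = 0.189, and 1.61 ± 0.66 with adjusted p = 0.223). The Ptk2 one was called higher without treated replicate 2 (2.12, edgeR adjusted p = 0.0463) and without untreated replicate 2 (2.35, adjusted p = 0.0467), and the Tlk1 one without untreated replicate 2 (2.85, adjusted p = 0.016).

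Fam185a (chr5:20959099-20965111) was alike, with 165 and 381 treated and 8 and 18 untreated reads (edgeR adjusted p = 0.232). So was Atrx, a chromatin remodeller gene on the X chromosome (chrX:103095220-103106993), with 164 and 281 against 5 and 14 reads (edgeR adjusted p = 0.232). Mllt10, which encodes a cofactor of the histone methyltransferase DOT1L, had a pair of abundant members that started at the same base. The shorter (chr2:18014411-18047856) had 139 and 316 treated and 15 and 12 untreated reads, and the longer (chr2:18014411-18068499) 161 and 252 against 18 and 32. The CPM of the shorter were higher in both treated libraries (608.4 and 835.0 against 507.8 and 313.0), while those of the longer overlapped (704.7 and 665.9 against 609.4 and 834.8). The difference between them was not tested. A member of 1700081L11Rik (chr11:104285236-104287782) went the other way, at 402.7 and 681.8 treated against 1287 and 782.6 untreated CPM (log2 fold change -0.92 ± 0.58, edgeR adjusted p = 0.239), and was called lower without factors (-1.75, edgeR adjusted p = 0.0371).

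One abundant junction stood apart in treated replicate 1. It lay on chromosome 11 outside every gene locus used here (chr11:98124784-98129172) and had 960 reads in treated replicate 2 and 24 and 41 in the untreated replicates, but 0 in treated replicate 1. A twin that ended 4 bases later (chr11:98124784-98129176) had 677 reads in treated replicate 2 and none elsewhere. In all, 79 members (2.262%) had such a twin with 1 end the same and the other within 10 bases, and joining members within 10 bases at both ends left 3450.

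In each library the share of members that recurred in another was below that of long exonic circular RNAs. Of the 3492, 2619 (75%) were in 1 library, 677 (19.39%) in 2, 136 (3.895%) in 3 and 60 (1.718%) in all 4. At least 2 libraries held 25%, against 37.57% of long exonic, 18.51% of short intronic, 23.89% of long intergenic and 33.65% of all circular RNAs. Treated replicate 2, the deepest library, alone held 2081 members (59.59%), treated replicate 1 alone 406, both treated libraries and no other 615, and the untreated libraries alone 60, 72 and, shared by both, 4. Of the members of treated replicate 1, 65.8% were also in treated replicate 2, compared with 81.0% of long exonic circular RNAs. Of the members of untreated replicate 1, 38.1% were also in untreated replicate 2, compared with 59.1%. The same held from the other side, at 27.2% against 38.8% for treated replicate 2 and 28% against 41.9% for untreated replicate 2. These are 2 libraries per treatment and the class difference was not tested over samples.

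Most members seen without treatment were found again after RNase R. A listing in either treated library counted, and these held 263855 and 560991 junction reads against 21754 and 30400 untreated. The part of depth in these shares was not tested. Of the 197 in untreated replicate 1, 133 (67.5%, exact binomial 95% interval 60.5 to 74.0) were in a treated list, and of the 268 in untreated replicate 2, 192 (71.6%, 65.8 to 77.0). The same shares were 90.3% and 89.6% for long exonic circular RNAs, 43.7% and 40.2% for long intergenic ones and 28% and 43.2% for short intronic ones. Long intronic circular RNAs lay between the exonic and the other long class in both untreated libraries, and the intervals of the 3 long classes did not overlap there. These intervals take circular RNAs as independent within 1 library, though many members share an end or a host. The class difference was not tested over samples. Among circular RNAs with at least 5 untreated reads the shares were 84.7% and 89.3% for long intronic, 95% and 95.9% for long exonic and 50.6% and 50.3% for long intergenic ones. Among these the interval of the long intronic class lay just below that of the long exonic one in untreated replicate 1 (73 to 92.8 against 93.2 to 96.5) and overlapped it in untreated replicate 2 (80.6 to 95 against 94.5 to 97).

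The span of members ranged from 2002 to 494134 bases, with a median of 16610.5 and quartiles of 6949.25 and 35668.2. Long exonic circular RNAs had a median of 10977.5. Members just above the threshold spanned 2005 bases (Rad54l2) and 2006 (Clip2), each with 5 reads in treated replicate 2, and intronic circular RNAs just below it 1999 (Lphn1, 9 and 10 treated reads) and 1997 (Cdk5rap2, 2 and 5).

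The longest members were thinly read. The longest (chr9:88539560-89033693) overlapped 6 gene loci and had 4 reads, in treated replicate 2. Next were 434148 bases of Cdk14, a cyclin-dependent kinase gene (chr5:4922127-5356274), with 2 reads in treated replicate 1, and 421633 bases on chromosome 14 (chr14:3353668-3775300) with 4 reads in untreated replicate 1. Above 100000 bases there were 168 members, of which 18 (10.71%) were in at least 2 libraries. They held 1.779% and 1.949% of the treated member reads and 6.641% and 8.763% of the untreated ones, so each untreated library was above each treated one.

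Members found only without treatment had long spans. The 136 of them had a median span of 33278 bases, against 16325.5 for the 3102 found only after treatment and 15320 for the 254 found in both. The difference was present in both untreated libraries, with medians of 30958 for those of replicate 1 alone and 34219.5 for those of replicate 2 alone, against 15485.5 and 16768 for the treated replicates. Of the 136, 26 (19.12%) spanned more than 100000 bases, compared with 4.384% of those found only after treatment. Long exonic circular RNAs found only without treatment had longer spans as well. Their median was 16112.5 bases against 10604 for long exonic ones found only after treatment, and 3.243% against 1.612% spanned more than 100000 bases. Of the 15 and 20 members above 100000 bases in the untreated replicates, 2 (13.3%, 1.66 to 40.5) and 6 (30%, 11.9 to 54.3) were found again after treatment, against 72.0% (64.9 to 78.4) and 75% (69.1 to 80.3) of the shorter ones. Among those with at least 5 untreated reads the shares were 25% (0.631 to 80.6) and 71.4% (29 to 96.3) against 89.1% and 90.9%. Here the intervals overlapped (77.8 to 95.9 and 82.2 to 96.3 for the shorter). All these intervals take members as independent, and the difference by span was not tested over samples. Of the 136, 48 (35.29%) lay inside no gene locus, against 277 (8.254%) of the members found in a treated library. Where a span covers several gene copies, as below, reads of the copies cannot be told apart in the lists, and the part of this in the difference was not tested.

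**Figure D2:**
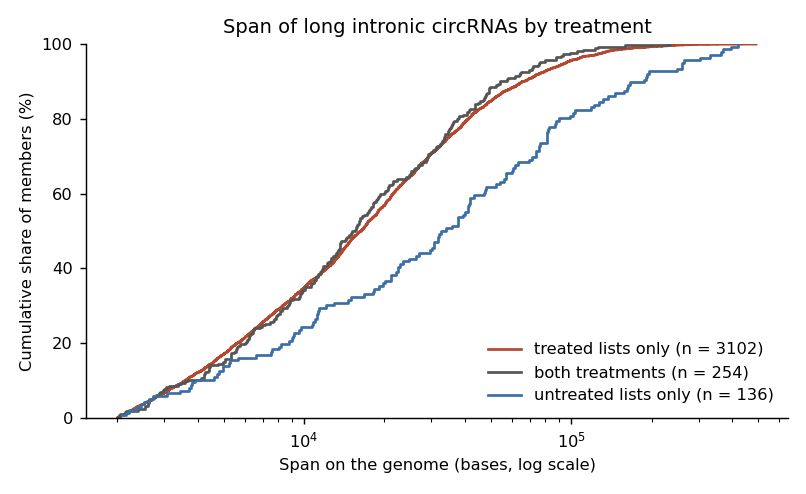
Cumulative share of long intronic circular RNAs in percent (vertical axis) by span on the genome in bases (horizontal log axis), for those found only in treated lists, in both treatments and only in untreated lists. The untreated-only curve lies to the right, with a median of 33278 bases against 16325.5 for treated-only members and 15320 for those in both.

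An end in common with an exonic circular RNA was frequent. Exactly 1 end was shared with an exonic circular RNA by 2013 members (57.65%), the start on the genome in 1016 and the end in 997, and 1479 (42.35%) shared none. No member shared both, while 9 long intergenic circular RNAs did; whether the rule behind the intronic type allows it is not known here. Of short intronic circular RNAs 8.438% and of long intergenic ones 11.71% shared exactly 1 end, and of long exonic ones 48.5% shared 1 and 29.29% both with another exonic circular RNA.

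Members with an end of an exonic circular RNA and those without one are set side by side here, with no test over samples. The former had a median span of 20283 bases against 12258, 43 of them were in all 4 libraries against 17 of the others, and 97.22% lay inside 1 gene locus against 80.39%. They held 69.28% and 65.29% of the treated member reads and 50.39% and 55.85% of the untreated ones. Of those in untreated replicates 1 and 2, 78.3% (69.6 to 85.4) and 85.0% (78.3 to 90.2) were found again after RNase R, against 52.4% (41.1 to 63.6) and 53.9% (44.4 to 63.2) of those with no such end. With at least 5 untreated reads these were 96.6% and 96.2% against 73.3% and 78.1%. The intervals of both sets did not overlap over all reads and overlapped at 5 reads or more (82.2 to 99.9 and 86.8 to 99.5 against 54.1 to 87.7 and 60.0 to 90.7).

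**Figure D3:**
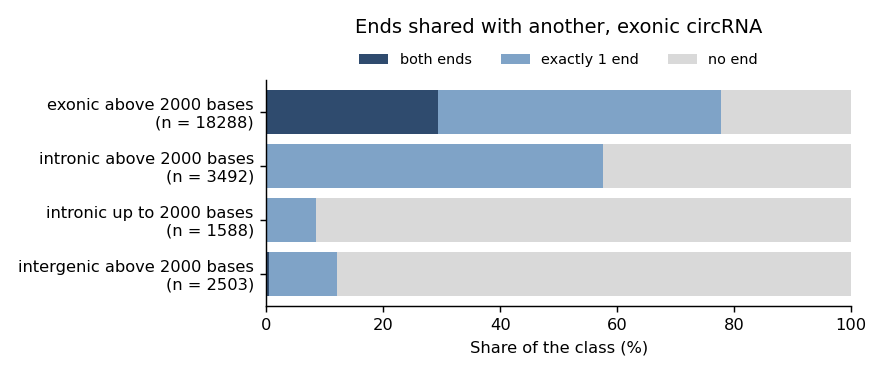
Share of circular RNAs in percent whose ends coincide, to the base, with those of another, exonic circular RNA, for 4 classes. Exactly 1 end was shared by 57.65% of long intronic circular RNAs and by 8.438% of short intronic ones, and both ends by none of either class.

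Some ends were used by many members. Ahcyl2, which encodes a relative of S-adenosylhomocysteine hydrolase, had 10 members that began at chr6:29749439, with spans of 2670 to 96978 bases and 57 and 111 treated and 7 and 9 untreated reads in all. No exonic circular RNA began there. Glis3, a zinc finger transcription factor gene, had 9 members that began at chr19:28605363, with 13 and 61 treated reads and none untreated. There 3 exonic circular RNAs began as well, with 1255 and 3238 treated and 149 and 190 untreated reads, so the intronic partners were a small part of the junctions at this base. Foxp1, a forkhead transcription factor gene, had 9 members that ended at chr6:99385339, the last base of its locus, with 165 and 278 treated and 13 and 3 untreated reads. The 4 exonic circular RNAs ending at that base had 50 and 42 treated and no untreated reads, fewer than the intronic ones. At Zfp532 6 members began at chr18:65798404 and at Mllt10 6 began at chr2:18014411, in both cases with no exonic circular RNA. Either end was shared with another member by 2000 of the 3492 (57.27%).

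By locus, 3146 members (90.09%) lay inside 1 gene, 21 inside several and 325 (9.307%) inside none, 149 of which overlapped no locus. The median member covered 14.2% of its host locus. There were 1394 hosts. Of these 800 (57.39%) had 1 member, 448 had 2 to 4 and 146 (10.47%) had 5 or more, and these last held 1164 members (37.0% of those with 1 host). An exonic circular RNA came from 1197 hosts (85.87%) as well, and 197 had none. Hosts were long genes, with a median locus of 93665.5 bases, or 205209 for hosts of 5 or more, against 52740.5 for hosts of long exonic circular RNAs and 14776 for all gene symbols. A gene must be longer than 2000 bases to hold a member, so length is in part set by the rule.

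Glis3 had the most members, 37 over its 417630 bases (chr19:28336938-28754567), of which 14 were in at least 2 libraries, next to 19 exonic circular RNAs. Its members had 220 and 548 treated and 11 and 21 untreated reads in all. Their leader (chr19:28729138-28740726) had 61, 153, 4 and 8 reads in treated replicates 1 and 2 and untreated replicates 1 and 2. Foxp1 had 27, of which 10 recurred, with 196, 378, 13 and 3 reads in that order. The leading Foxp1 member (chr6:99379204-99385339) had 67, 147, 5 and 3 reads.

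Samd4, which encodes an RNA-binding repressor of translation, had 18 members against 7 exonic circular RNAs, and 10 of the 18 recurred. Of the 18, 5 shared an end with an exonic circular RNA, and none of the leading 3 did. The leader (chr14:47529786-47536726) had 56 and 107 treated and 4 and 15 untreated reads. Bnc2 had 17 members and 4 exonic circular RNAs. Its 776 and 1606 treated member reads were mostly those of the abundant junction above, since the next member (chr4:84185790-84201808) had 23 and 40. Large, which encodes a glycosyltransferase that modifies dystroglycan, had 16, led by one of 126162 bases (chr8:75738024-75864185) with 94 and 130 treated and 3 and 6 untreated reads. Tlk1 and Ptk2 had 15 each, Wdfy3, an autophagy adaptor gene, and Arhgap26, a gene for a GTPase activator, 14 each, and Mllt10 13. Ptk2, Arhgap26, Mllt10 and Wdfy3 had more exonic circular RNAs (36, 35, 27 and 16) than members, and 1 of the 14 at Arhgap26 recurred.

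**Figure D4:**
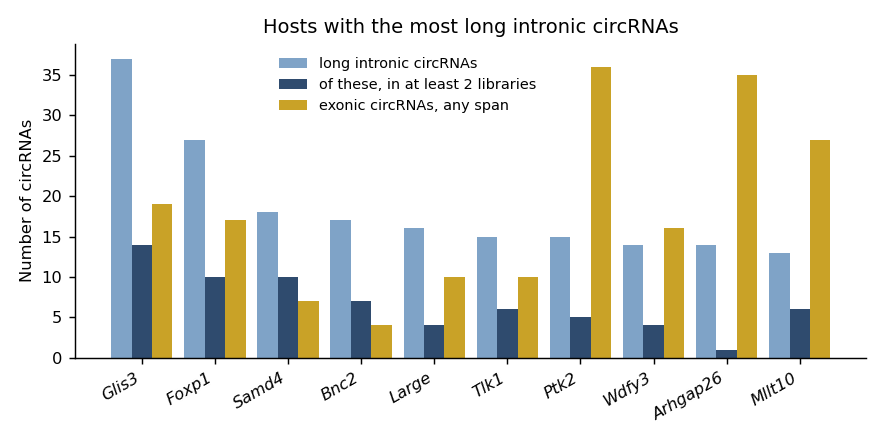
Number of circular RNAs in the 10 genes with the most long intronic ones: long intronic circular RNAs, those of them in at least 2 libraries, and exonic circular RNAs of any span. Glis3 leads with 37. Ptk2, Arhgap26, Mllt10 and Wdfy3 have 36, 35, 27 and 16 exonic circular RNAs against 15, 14, 13 and 14 long intronic ones.

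Most host genes were expressed somewhere in the germ cell series. Of the 1394 hosts, 1300 (93.26%) reached 1 FPKM, the authors' measure of fragments per length and depth, in 2 or more of the 8 germ cell libraries, of any stage. By the same rule it was 62.57% of all gene symbols and 95.03% of hosts of long exonic circular RNAs. In priSG-A the median host level was 9.086 and 8.922 FPKM in replicates 1 and 2. It was 7.599 and 7.439 for all expressed genes and 11.42 and 10.95 for hosts of long exonic circular RNAs. In plpSC the median host was at 5.742 and 7.509 against 6.07 and 6.955 for all expressed genes. The pacSC values were 4.071 and 4.177 against 4.327 and 5.051, and those of rST 4.077 and 3.625 against 4.662 and 4.233. These medians count the hosts below the expression limit too. Over the 1300 expressed hosts alone priSG-A stood at 10.28 and 10.11, plpSC at 6.515 and 8.818, pacSC at 5.043 and 5.241, and rST at 4.646 and 4.32, above those of all expressed genes in each library but rST replicate 1. In such bulk samples fewer cells of a type and less RNA per cell cannot be told apart.

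The hosts with the most members had low as well as high levels. Glis3 was at 3.313 and 3.331 FPKM in priSG-A and at or below 0.634 in each later library. Foxp1 was at 5.743 and 4.558, Samd4 at 2.762 and 2.337 and Bnc2 at 6.924 and 6.021, all below the median host. Ptk2 (39.56 and 38.86) and Tlk1 (19.94 and 20.43) were above it. Samd4 was highest in rST (46.75 and 51.41) and Mllt10 in pacSC (136.0 and 140.7), stages remote from the SSCs whose circular RNAs were listed. These levels come from other cells than the junctions.

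Some genes of undifferentiated spermatogonia were among the hosts, each through treated replicate 2 alone. Of 24 genes listed for undifferentiated spermatogonia that had a locus, 6 held a member (25%), beside 6.18% of all gene symbols and 9.21% of all expressed genes. They were Zbtb16 and Etv5, transcription factors of SSC maintenance, Gfra1, which encodes the GDNF receptor, Foxo1, Dmrt1 and the germ cell helicase gene Ddx4. Ddx4 was not particular to spermatogonia, at 81.03 and 72.91 FPKM in priSG-A and at or above 151.4 in each later library. All member reads of these 6 genes were in treated replicate 2, the deepest library, and none of their members recurred. The reads were 34 at Zbtb16, 12 at Etv5, 5 at Foxo1, 4 at Ddx4 and 2 each at Dmrt1 and Gfra1. Of 6 spermatocyte genes 1 did, the recombinase gene Dmc1. None of 10 fibroblast or feeder cell genes and none of 6 Sertoli cell genes did. Of 21 genes for factors of circular RNA formation 6 did (28.6%), among them Qk, whose protein promotes circle formation, Celf2, Esrp1, Mbnl3, Celf1 and Rbfox2. Of 19 genes known for circular RNAs 9 did (47.4%), among them Ankrd12, Fbxw7, Rims2, Zfp609, Ankib1 and Cdyl. Of 30 chromatin regulators 8 did (26.7%), among them Arid1b, Ezh2, Ehmt1, Setd2 and Crebbp. Members at Dmc1, Mbnl3, Rbfox2, Ankib1, Cdyl, Ezh2, Setd2 and Crebbp also had reads in treated replicate 2 alone. Celf2, Qk, Ankrd12, Fbxw7, Rims2, Arid1b and Ehmt1 had members that recurred. Exonic circular RNAs came from 12 of the 24 spermatogonial genes, 19 of the 21 formation factor genes, 18 of the 19 known genes and 29 of the 30 chromatin regulators. They came from 3 of the 6 spermatocyte genes, 0 of the 10 fibroblast or feeder cell genes and 1 of the 6 Sertoli cell genes. Over all expressed genes it was 5375 of 14111. High shares in some lists, and low ones in the fibroblast and Sertoli cell lists, are thus not particular to long intronic circular RNAs. As hosts are long and expressed, these shares are a description and were not tested.

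Members made up different shares of the circular RNAs of each chromosome. The share was highest on the Y (10 of 54, 18.5%), followed by chromosomes 9 (17.3%), 18 (15.9%) and 19 (15.4%), and among autosomes lowest on 7 (7.86%). The X had 83 of 705 (11.8%). No test was made, since members of 1 host are not independent.

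The response to RNase R was tested with edgeR's quasi-likelihood test over the 9976 circular RNAs in at least 2 of the 4 libraries. It called 178 (1.78%) at an adjusted p under 0.05, 43 higher (0.431%) and 135 lower (1.35%) after treatment. Of 873 members tested 7 were called (0.802%), all of them lower, and none was called higher. Of the 7, 4 had no treated read and could only come out lower. At an unadjusted p under 0.05 there were 120 members higher and 22 lower (16.3% of those tested), beside 1720 and 363 of all circular RNAs (20.9%). Of those tested, 615 members and 6207 of all circular RNAs had no untreated read and could only come out higher. No direction is therefore read from these numbers. DESeq2 called 6 members, none of them higher, and 169 of all. The number moved with the library left out. It was 3 of 253 tested without treated replicate 1 (75 of 3701 over all circular RNAs), 5 of 205 without treated replicate 2 (85 of 3205), 28 of 852 without untreated replicate 1 (531 of 9657) and 30 of 828 without untreated replicate 2 (459 of 9481). Of these member calls 1, 1, 24 and 18 were higher. In each of these fits the lone library is taken to vary like the other treatment. Without either untreated library, members in both treated lists and not in the remaining untreated one could only come out higher. No direction is read from those calls. With a minimum of 10 reads in sum in place of 2 libraries, edgeR called none of any class. At an unadjusted p under 0.05 it had 164 of 889 members, beside 2189 of 10535 over all circular RNAs.

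Of the 873, 615 had passed through both treated lists with no untreated read and so had to be higher, and no direction is read from their number or median. Likewise 4 had passed through both untreated lists with no treated read and so had to be lower. The 60 members in all 4 libraries had reads on both sides. Their median log2 fold change was 0.43 (quartiles -0.45 to 1.04), next to 0.46 for all 1195 circular RNAs in all 4 libraries, 0.47 for the 893 long exonic and -0.09 for the 63 long intergenic ones. The scale itself moved with the method: for members and all circular RNAs in all 4 libraries the medians were -0.04 and 0.01 with RLE factors and -0.38 and -0.34 without factors. Relative to all circular RNAs the members' median was thus lower by under 0.05 on the log2 scale with each of these 3 scalings, a difference that was not tested. None of the 60 was called by edgeR, beside 2.34% of the 1195, nor by DESeq2, beside 54 of the 1195. Without factors edgeR called 4 of the 60, beside 78 of the 1195. At an unadjusted edgeR p under 0.05 there were 6 of the 60, 4 higher and 2 lower. Over the 1195 it was 236 (19.7%), 152 higher and 84 lower. Of the 60, 28 were higher in both treated libraries than in both untreated ones (46.7%, against 43.4% of all 1195) and 11 lower (18.3% against 17.7%).

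**Figure D5:**
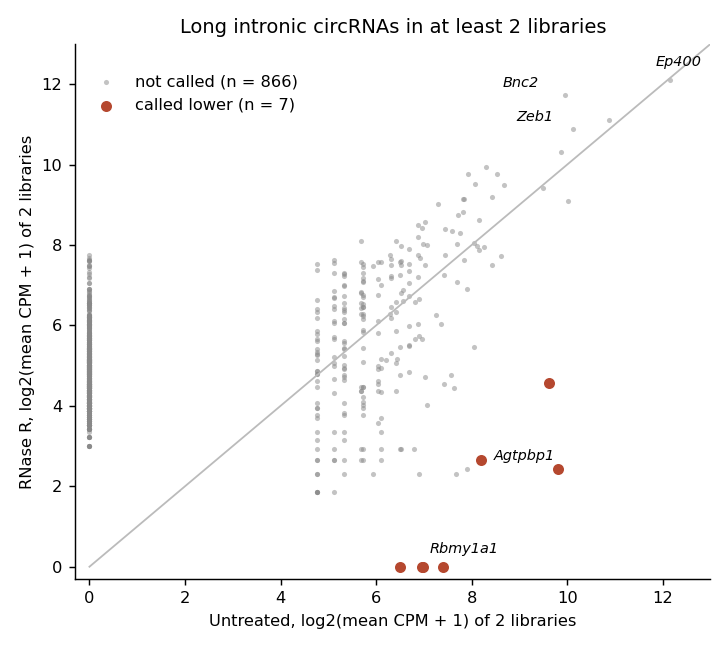
Level of the 873 long intronic circular RNAs in at least 2 libraries, as log2(mean CPM + 1) of the 2 untreated (horizontal) and the 2 treated libraries (vertical); the line marks equal levels. The 7 called lower lie at the bottom right, the column at 0 on the left holds the 615 with no untreated read, and the abundant Ep400 junction lies on the line.

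The 7 members called lower were long, from 22389 to 233847 bases, and none shared an end with an exonic circular RNA. The clearest spanned 233847 bases (chr17:8124996-8358842) with 2 and 0 treated and 32 and 27 untreated reads (log2 fold change -7.71 ± 1.01, edgeR adjusted p = 0.000229). It lay inside no gene and overlapped 6, among them the near copies Rnaset2a and Rnaset2b, which encode RNases. One of Agtpbp1, which encodes an enzyme that trims glutamates from tubulin, spanned 91849 bases (chr13:59555896-59647744) and had 0 and 4 treated and 12 and 7 untreated reads (-5.40 ± 1.12, edgeR adjusted p = 0.016), a call lost without treated replicate 1 (edgeR adjusted p = 0.309). In both the untreated libraries lay far above the treated ones.

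A further 4 had no treated read, so their fold is a bound against 3 counts over both treated libraries. They entered the test through both untreated lists alone and had to be lower, so no direction is read from them. One at A130040M12Rik (chr13:62275476-62374513) had 3 and 9 untreated reads and was at least 35.8-fold lower (edgeR adjusted p = 0.0118). One at Rbmy1a1, a gene for an RNA-binding protein present in many copies on the Y (chrY:2191647-2387826), had 2 and 7 and was at least 26.8-fold lower (edgeR adjusted p = 0.0177). One on the X (chrX:34828799-34868834) had 5 and 3, was at least 23.8-fold lower (edgeR adjusted p = 0.0177) and overlapped the homeobox genes Rhox2b, Rhox2c, Rhox2e and Rhox4b, a cluster of near copies. One at Ahcyl2 (chr6:29749439-29771827), which began at the shared base named above, had 3 in each untreated library and was at least 17.9-fold lower (edgeR adjusted p = 0.0189). None of these 4 was called without treated replicate 1 (edgeR adjusted p = 0.965 to 0.999) or without treated replicate 2 (0.825 to 0.999), and without either untreated library they were in fewer than 2 libraries and not tested.

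The last (chr8:19878683-20000997, overlapping 3 loci) had 2 and 14 treated and 0 and 60 untreated reads (-5.00 ± 1.17, edgeR adjusted p = 0.0261). It rested on untreated replicate 2, without which its log2 fold change was 5.40. Genes at no fewer than 3 of the 7 (Rnaset2a and Rnaset2b, Rbmy1a1, and the Rhox2 cluster) have near copies, so the copy of origin is uncertain. Whether genes at the others have copies was not checked, among them the 3 loci on chromosome 8 (2610005L07Rik, 6820431F20Rik and Gm15319). The members at Ahcyl2 and on chromosomes 8 and X were named after their values were seen.

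The 4 rises of smallest p had no untreated read. They entered the test through both treated lists alone and had to be higher, so no direction is read from them. None was called with all 4 libraries and the filter of at least 2 libraries. With no filter all 4 were called (edgeR adjusted p = 0.00807 to 0.0142). A Phf21a member, from a gene for a histone reader of a demethylase complex (chr2:92050387-92070881), had 64 and 56 treated reads, at least 4.47-fold above the level of 3 untreated counts (edgeR adjusted p = 0.0841). Sipa1l1 (chr12:83335450-83341847) had 48 and 70 (at least 4.40-fold, edgeR adjusted p = 0.0907), the small GTPase gene Rab6b (chr9:103030243-103042770) 33 and 99 (at least 4.92-fold, adjusted p = 0.0917), and Foxp1 (chr6:99378783-99385339) 51 and 64 (at least 4.29-fold, adjusted p = 0.093). Of the 3102 members found only after treatment, 165 (5.32%) had a treated level above that floor, which equals 26.8 treated reads. For the other members absence from the untreated lists was within what their depth allows. The lists hold few circular RNAs of 1 read, so an unlisted one may still have had a read in a library, which the floor of 3 over both libraries exceeds.

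Members found only without treatment with the most reads were each in 1 library. One on chromosome 11 had 121 reads in untreated replicate 2 (chr11:100986517-101022260) and overlapped the near-identical γ-tubulin genes Tubg1 and Tubg2. A pair in Brwd1, which encodes a bromodomain protein (chr16:96229444-96231594 and chr16:96226570-96231175), had 88 and 41 reads in untreated replicate 1. One with 67 reads in that library (chr17:13119244-13137376) overlapped the acetyl-CoA acetyltransferase genes Acat2 and Acat3, and one with 29 reads in untreated replicate 2 (chr17:15125862-15156435) overlapped 3 loci. All 5 were absent from both treated libraries, at least 86.4- to 361-fold lower against 3 treated counts, but also from the other untreated library.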

How the data were processed

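For the 4 SSC libraries the authors deposited 1 list each of back-splice junction counts per circular RNA, with its type, in the column layout of CIRI. Its version, its read minimum and its annotation are not given in the sources used here. For the 8 germ cell libraries the authors deposited FPKM per gene. Per the submitters' processing notes, BWA, Cuffdiff, TopHat2 2.0.6 and build mm9 were used, without steps, and no strand is stated. The lists were joined by position, an absent circular RNA being entered as 0. Span was end minus start plus 1. A host was a gene whose mm9 locus, from the FPKM file with a locus column, contains the span; locus starts count from 0 there, so 1 was added. FPKM of the 469 entries with a repeated symbol were summed, and 25 of 22552 symbols are calendar dates in the files (2 of them hosts). Junction totals lay between 21754 and 560991 reads.

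edgeR 4.0.16 (quasi-likelihood, TMM factors of 0.8658 and 0.6746 for the treated and 1.358 and 1.261 for the untreated replicates, Benjamini-Hochberg over all circular RNAs tested) in R 4.3.3 was the test, for circular RNAs in at least 2 libraries, and was tested on simulated data. Alternatives were DESeq2 1.42.0, RLE or no factors, other filters and spans, and each library left out. Intervals are exact binomial at 95%, and the floor was 3 counts over a group. Python 3.11.15, pandas 2.3.3, scipy 1.17.1 and matplotlib 3.10.9 did the rest. Named members were those with the most reads in each treatment, in all 4 libraries or only without treatment, the 4 rises and 4 falls of smallest p, the 3 longest, the 3 on each side of 2000 bases (1 on each side is not reported here), and, after their values were seen, other called ones and the ends most shared. Named hosts were theirs, the 10 with the most members and up to 6 per list. Members and lists were chosen with earlier results of these data known.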

Additional observations from a re-analysis of the deposited data

How the results depend on the processing

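The 7 called of 873 members became 10 with RLE factors (239 of 9976 over all circular RNAs), 6 with DESeq2 (169 over all) and 18 without factors, all lower (324 over all). With no filter 37 of 3492 members were called (13 higher, 24 lower), beside 556 of 29643 over all (171 higher, 385 lower). With at least 10 reads in sum it was 0 of 889 members and 0 of 10535 over all. With the replicate number as a block 3 were called (1 higher, 2 lower). The pairs' deviations correlated at r = 0.117 over 9976 and 0.199 over 1195 circular RNAs, and with 2 pairs the samples share only a number. Leaving out 1 library gave 3 to 30 called members, 1 to 24 higher and 2 to 12 lower. All circular RNAs split into 43 higher and 135 lower, 33 and 291 without factors, 62 and 59 with the block and 409 and 122 without untreated replicate 1. The median log2 fold change of tested members (4.67, mostly fitted against 0) was 1.42 with DESeq2, 3.05 with no filter, 4.90 with at least 10 reads, 4.60 with the block, 0.426 for those in all 4 libraries (added after seeing the data) and 0.234 to 5.35 with 1 library left out. The difference in share of reads was 0.213 for spans above 1000 bases, 0.562 above 5000, 0.70 with at least 5 reads, and -0.0281 to 0.622 with 1 library left out. Members in at least 2 libraries were 543 with at least 5 reads in a library, 878 with ends within 10 bases, and 205 to 852 with 1 library left out. Those inside 1 locus were 3203 by any overlap. The median host level in priSG-A (9.0 FPKM) was 10.2 for expressed hosts and 9.16 for hosts of recurring members.

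Of the single members named, the log2 fold change of Zeb1 was -0.0263 without factors, and that of Zfp532 -0.255 with RLE factors, -0.584 without factors, -0.258 with DESeq2 and ranged from -0.205 (without untreated replicate 1; -0.182 without treated replicate 2) to 0.978 (without untreated replicate 2) with 1 library left out. The longer Mllt10 member ranged from -0.186 to 0.169 (without untreated replicates 1 and 2) with 0.0928 without treated replicate 2, Ep400 from -0.155 (without untreated replicate 2) to 0.165 (without untreated replicate 1) with 0.11 without treated replicate 1 (-0.832 and called lower without factors), and the chromosome 8 member from -6.19 (without treated replicate 2) to 5.40 (without untreated replicate 2). Of the 7 calls, 2 were kept with the block, that on chromosome 17 and that on chromosome 8, and those of Agtpbp1 (edgeR adjusted p = 0.213) and of the 4 with no treated read (0.891 each) were not. The chromosome 8 call was also lost with DESeq2 (0.393). The cause was not tested. Untreated depth limits the response: a member needs 26.8 treated reads to exceed 3 untreated counts.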
